A study of Homo sapiens with 3 samples.

Results

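The 7 genes described here, COL1A1, COL1A2, COL2A1, COL3A1, COL5A1, COL5A2 and COL11A1, encode chains of the fibrillar collagens. They were examined through the target intervals that a branchpoint capture design placed at the ends of their introns. The genes were selected on a measured value. Gaps of 55 nt between neighbouring intervals had been seen to be commoner over the whole list than similar lengths, and exons of 54 nt are known from these genes. Counts of such gaps in the 7 genes are therefore a description, and no test was made of them. The intervals were taken by position, as those fully inside an hg19 window around each gene, and there were 653 of them among 377858 in the list (0.173%).

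The list belongs to 3 capture libraries of K562, a human leukaemia cell line of erythroid and myeloid character, which are biological replicates 1, 2 and 3 of 1 group. Each library was made from 5 µg of total RNA depleted of ribosomal RNA, with ERCC spike-in RNA at 1% in replicates 1 and 2 and 1.08% in replicate 3. The design targeted the terminal 100 nt at both ends of introns, leaving out repeats, annotated exons and regions highly transcribed in public K562 RNA data, so the space between neighbouring intervals is mostly an exon or the untargeted middle of an intron. The list holds no value per library, so it shows where capture was aimed and not how much RNA was captured. Numbers over it are a census without replicate error, and read depths were not analysed here.

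A collagen chain is a long run of amino acid triplets of the form Gly-X-Y, in which glycine, the smallest residue, is needed at the start of each triplet for 3 chains to wind into a triple helix. In fibrillar collagens most exons of the helix carry whole triplets, each of 9 nt, so such an exon of 54 nt carries 6 triplets. COL1A1 and COL1A2 encode the chains of type I collagen, the main collagen of bone, skin and tendon. COL2A1 encodes type II collagen of cartilage, and COL3A1 encodes type III collagen of vessel walls and skin. COL5A1 and COL5A2 encode chains of type V collagen, which helps to start and size type I fibrils, and COL11A1 encodes a chain of type XI collagen, its counterpart in cartilage.

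The exon sequences show the repeat directly. For each gene the internal exon of 54 nt nearest the 5′ end of the main annotated transcript is given, with its GRCh38 position. Sequences are read 5′ to 3′ on the coding strand from the GENCODE release 29 transcripts. Exon classes are named by length, as the number of triplets that fit, whatever the codons. Capitals mark every in-frame GGN codon, the codons for glycine.
COL1A1 exon 8 of 51, chr17:50197949-50198002, minus strand: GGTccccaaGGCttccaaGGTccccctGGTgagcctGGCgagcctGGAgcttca
COL1A2 exon 6 of 52, chr7:94401567-94401620, plus strand: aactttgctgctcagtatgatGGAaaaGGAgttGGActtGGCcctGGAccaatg
COL2A1 exon 6 of 54, chr12:47997871-47997924, minus strand: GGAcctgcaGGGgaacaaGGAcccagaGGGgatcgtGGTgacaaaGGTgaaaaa
COL3A1 exon 6 of 51, chr2:188988081-188988134, plus strand: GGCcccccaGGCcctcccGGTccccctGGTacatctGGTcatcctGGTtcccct
COL5A1 exon 15 of 66, chr9:134753850-134753903, plus strand: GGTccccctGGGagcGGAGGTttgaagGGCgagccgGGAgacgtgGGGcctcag
COL5A2 exon 6 of 54, chr2:189097277-189097330, minus strand: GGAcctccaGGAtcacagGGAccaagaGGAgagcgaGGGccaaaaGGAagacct
COL11A1 exon 15 of 67, chr1:103008463-103008516, minus strand: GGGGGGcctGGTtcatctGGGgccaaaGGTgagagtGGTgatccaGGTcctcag

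Of these 7 exons, 6 had a GGN codon at the start of each triplet. The COL1A2 exon did not: its first codon was not GGN, and 2 of its 5 GGN codons stood at triplet starts. It is in the class by its length and not by its codons. The other exon classes of these genes are whole numbers of triplets too, as the COL1A1 exons of 5, 11 and 12 triplets show.
COL1A1 exon 7, 5 triplets, chr17:50198161-50198205: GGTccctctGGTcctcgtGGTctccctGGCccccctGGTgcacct
COL1A1 exon 17, 11 triplets, chr17:50195567-50195665: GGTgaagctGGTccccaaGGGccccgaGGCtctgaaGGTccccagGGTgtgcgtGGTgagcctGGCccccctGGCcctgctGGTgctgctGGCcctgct
COL1A1 exon 21, 12 triplets, chr17:50194721-50194828: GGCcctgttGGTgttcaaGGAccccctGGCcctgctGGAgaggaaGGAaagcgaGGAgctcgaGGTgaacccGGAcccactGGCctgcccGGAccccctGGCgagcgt

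Across the main transcripts of the 7 genes, 303 internal exons had one of these 5 lengths, and all 303 began on a whole codon. In 302 of them (99.7%) each triplet began with GGN, and the only exon without it was the COL1A2 exon printed above. Among 4969 internal exons of the same 5 lengths in genes other than collagens, 3 (0.0604%) had GGN at the start of each triplet. In other collagen genes it was 425 of 485 (87.6%), and the classes differed. There it was 114 of 123 exons of 5 triplets (92.7%), 282 of 297 of 6 triplets (94.9%) and 29 of 43 of 12 triplets (67.4%). It was 0 of 14 exons of 11 triplets and 0 of 8 of 18 triplets. An exon that starts inside a codon cannot begin with an in-frame GGN codon, and whole-codon starts were not general outside the 7 genes. In other collagen genes they numbered 1 of the 14, 0 of the 8 and 30 of the 43 exons of 12 triplets. The low counts in these classes therefore do not show that the exons lack glycine repeats. In genes other than collagens, 2886 of the 4969 exons began on a whole codon. GGN codons were not used to choose the genes, but glycine repeats are known of collagen helices, and exons are not independent of each other.

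In the interval list, each gene occupied a compact block. COL1A1 held 52 intervals on chromosome 17 between 48263010 and 48278770, inside a window of 48.261 to 48.279 Mb. COL1A2 held 74 on chromosome 7 between 94024414 and 94058499 (window 94.023 to 94.061 Mb), and COL2A1 held 89 on chromosome 12 between 48367337 and 48398015 (window 48.366 to 48.399 Mb). On chromosome 2, COL3A1 held 85 between 189839296 and 189876353 (window 189.839 to 189.878 Mb). COL5A2 held 105 on the same chromosome between 189898943 and 190044232 (window 189.896 to 190.045 Mb), and no other interval lay in the 22589 nt between these neighbours. COL5A1 held 125 on chromosome 9 between 137534144 and 137734002 (window 137.533 to 137.737 Mb). COL11A1 held 123 on chromosome 1 between 103343722 and 103573627 (window 103.342 to 103.575 Mb). All list coordinates are hg19 and 1-based. The nearest interval outside a window was 1271 nt away, beside COL2A1. Intervals are numbered along each chromosome, and no number was missing in any of the 7 blocks.

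Gaps of the collagen exon lengths made up most of the short gaps in these genes. Most gaps that matched an annotated exon were 1 nt longer than it, so exons of 5, 6 and 11 triplets correspond to gaps of 46, 55 and 100 nt, and exons of 12 and 18 triplets likewise to their length plus 1 nt. Of 439 gaps of 30 to 400 nt in the 7 genes, 252 (57.4%) had one of the 5 lengths, against 3.09% of 175023 such gaps in the whole list. The 7 genes held 0.251% of all gaps of 30 to 400 nt and 4.67% of those with the 5 lengths. The commonest was the 6-triplet gap of 55 nt, with 150 of the 439 (34.2%) in the 7 genes and 0.622% in the whole list. Of the list's 1089 gaps of 55 nt, 13.8% lay in the 7 genes.

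The other classes were less common. There were 43 gaps of 12 triplets plus 1 nt (9.79%, against 0.814% in the list), 34 gaps of 5 triplets plus 1 nt (7.74%, against 0.357%) and 21 gaps of 11 triplets plus 1 nt (4.78%, against 0.775%). The 18-triplet gap occurred 4 times (0.911%, against 0.518%), too few to read a share from. Lengths beside 55 nt were rare in the 7 genes, with 1 gap of 52 nt, none of 53 nt, 1 each of 56 and 57 nt and 2 of 58 nt. The exception was 54 nt, with 12 gaps.

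**Figure D1:**
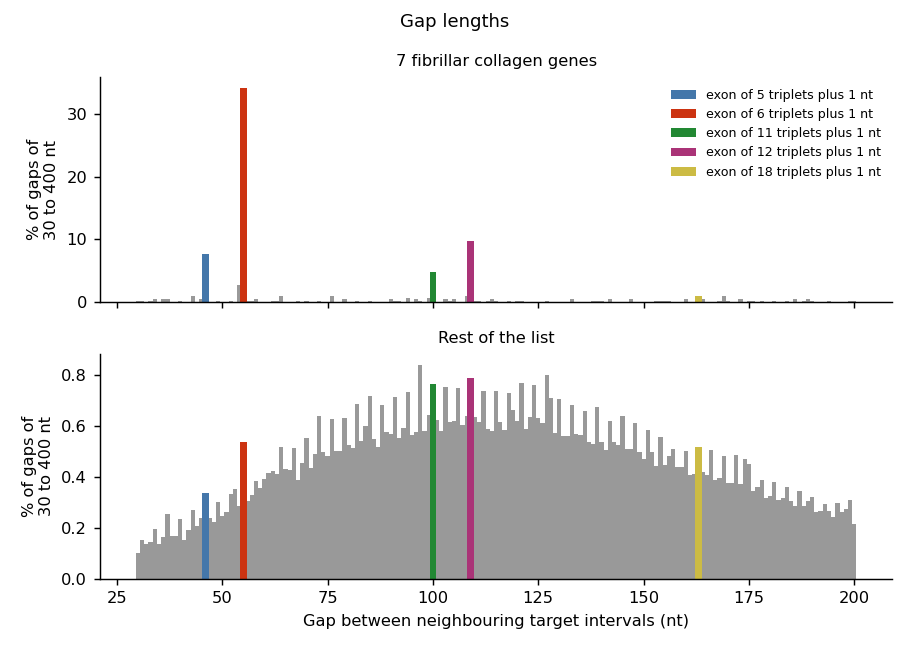
Gap lengths between neighbouring target intervals, as a percentage of all gaps of 30 to 400 nt (vertical axes, which differ in scale), for the 7 collagen genes above and the rest of the list below. Coloured bars mark the 5 collagen lengths; in the 7 genes the bar at 55 nt reaches 34.2%, while 55 nt makes up 0.622% of such gaps in the whole list.

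Per gene, the 5 lengths ranged from 50% to 62.5% of gaps of 30 to 400 nt. The highest shares were those of COL1A1, with 25 of 40 gaps, and COL5A2, with 40 of 64 (62.5% each). COL11A1 had 45 of 74 (60.8%), COL3A1 had 37 of 63 (58.7%) and COL5A1 had 40 of 69 (58%). COL1A2 had 26 of 51 (51%) and COL2A1 had 39 of 78 (50%). All 7 values lay far above the 3.09% of the whole list, and the differences among them were small beside that distance. These shares also count untargeted intron middles of 30 to 400 nt, so they do not rank how many exons of the 5 lengths had a gap. In order along the gene, 25 of 41 such exons matched a gap in COL1A1 (61%) and 38 of 43 in COL2A1 (88.4%).

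The gap of 55 nt was found 30 times in COL11A1, 27 times in COL5A1, 22 times in COL5A2, 21 times in COL2A1, 20 times in COL3A1 and 15 times each in COL1A1 and COL1A2. The genes differed in which longer classes they held. COL5A1 and COL11A1 had no gap of 100 nt and none of 18 triplets plus 1 nt, and each had 7 of 46 nt. The other 5 genes had between 3 and 5 gaps of 100 nt each. A gap of 18 triplets plus 1 nt was listed once each in COL1A1, COL2A1, COL3A1 and COL5A2.

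The annotation showed the same division among these exons. COL5A1 and COL11A1 have no internal exon of 11 or 18 triplets, while COL1A1, COL1A2, COL2A1, COL3A1 and COL5A2 have 5 of 11 triplets and 1 of 18 triplets each. Exons of 6 triplets number 31 in COL11A1, 29 in COL5A1, 24 in each of COL1A2, COL2A1, COL3A1 and COL5A2, and 21 in COL1A1. COL1A1 has the most exons of 12 triplets among the type I to III genes, 9 against 8 in each of COL1A2, COL2A1 and COL3A1.

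**Figure D2:**
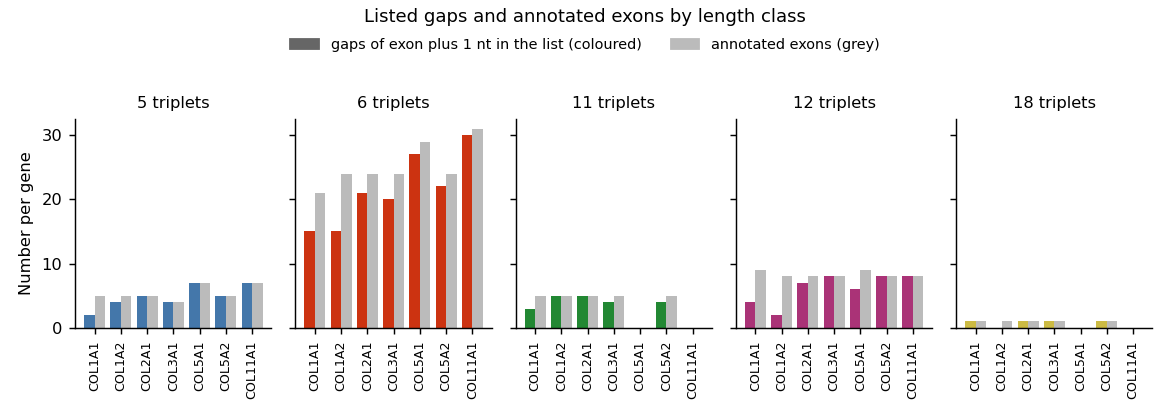
Number per gene (vertical axis) of listed gaps equal to an exon of 5, 6, 11, 12 or 18 triplets plus 1 nt (coloured bars, left) and of annotated internal exons of that length (grey bars, right). The largest shortfalls are in COL1A1 and COL1A2, which have 15 gaps each for 21 and 24 exons of 6 triplets, and 11-triplet exons are absent from COL5A1 and COL11A1.

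The order of the 5 exon classes was also compared between genes, 5′ to 3′, as the longest series of exon lengths that occurs in the same order in both. In the annotation, COL1A2, COL2A1 and COL5A2 each have 43 exons of these classes in an identical order. COL3A1 has 42, all of which follow the order of COL1A2, COL2A1 and COL5A2 with 1 exon fewer. COL1A1 has 41 and shares 40 in order with COL1A2, COL2A1 and COL5A2. COL5A1 (45 exons) and COL11A1 (46 exons) share 44 with each other and 31 or 32 with each of the other genes.

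The listed gaps carried part of that order. COL2A1 and COL5A2 shared 37 gaps in order, which is 94.9% of the 39 in COL2A1 and 92.5% of the 40 in COL5A2. COL5A1 and COL11A1 shared 38 gaps, which is 95% of the 40 in COL5A1 and 84.4% of the 45 in COL11A1. Between COL5A1 and COL5A2, both chains of type V collagen, 29 gaps were shared (72.5% of each). COL1A1 and COL1A2, both chains of type I collagen, shared 18 gaps, which is 72% of 25 in COL1A1 and 69.2% of 26 in COL1A2. For this pair the annotation shares 40 exons in order, of 41 in COL1A1 and 43 in COL1A2. Both type I genes shared more gaps with each of the other genes than with each other. Such a count can grow with the number of gaps in the partner, which was 25 and 26 in the type I genes and 37 to 45 in the others. It therefore does not show that the type I pair is less alike. COL1A1 shared 25 with COL5A2, which is 100% of its own and 62.5% of those in COL5A2. COL1A2 shared 25 with COL3A1, which is 96.2% of its own and 67.6% of those in COL3A1. These counts describe the pairs and were not tested.

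**Figure D3:**
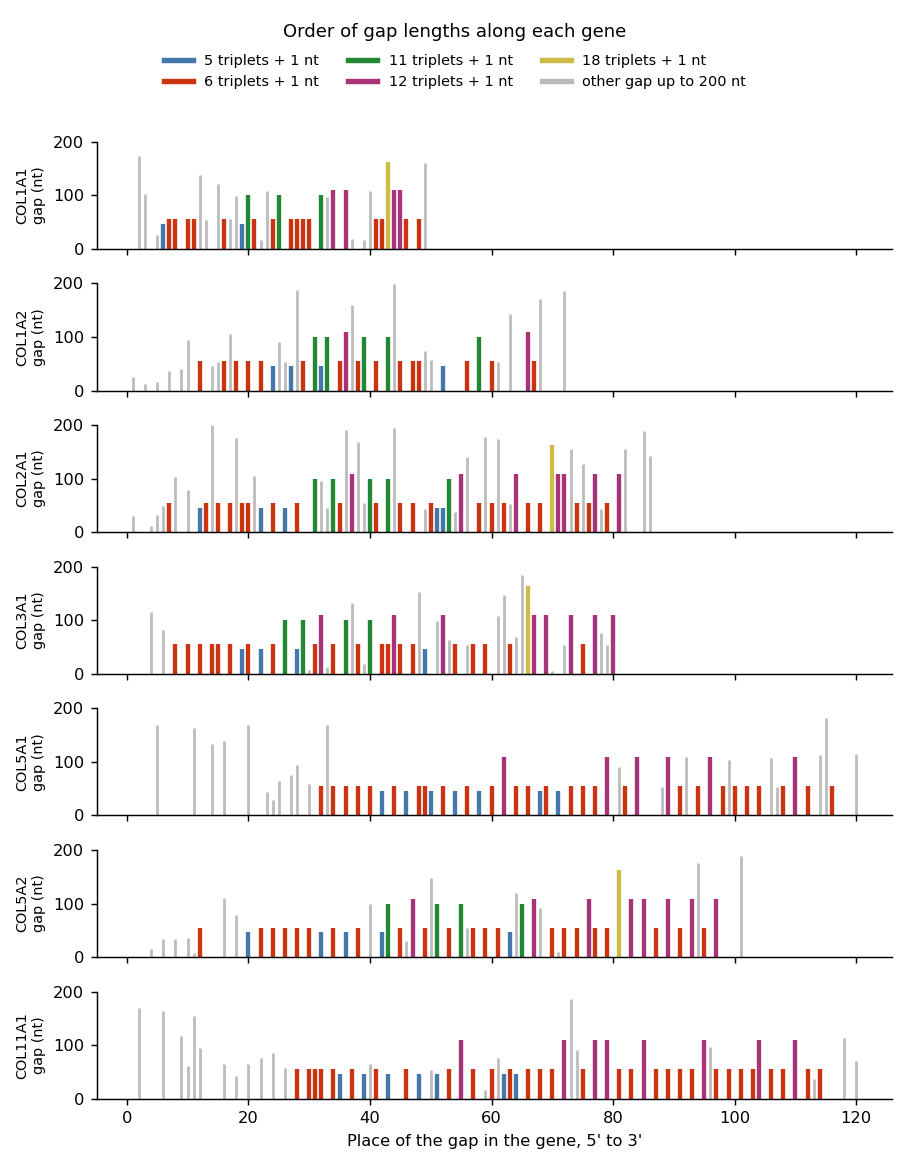
Gap length in nt (vertical axis) against the place of the gap in each gene, 5′ to 3′ (horizontal axis), with the 5 collagen lengths in colour and other gaps up to 200 nt in grey. Red bars of 55 nt recur along every gene, and green bars of 100 nt occur in the 5 genes other than COL5A1 and COL11A1.

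The longest unbroken run of gaps that all had one of the 5 lengths was in COL1A1, with 6 gaps on chromosome 17 from 48266102 to 48267273. Read along the chromosome, these gaps were of 6, 12, 12, 18, 6 and 6 triplets plus 1 nt. COL2A1 and COL3A1 had runs of 4, which began at 48376630 on chromosome 12 and at 189861891 on chromosome 2. COL1A2 had a run of 3 from 94038634 on chromosome 7, COL5A1 a run of 3 from 137658846 on chromosome 9 and COL11A1 a run of 3 from 103444263 on chromosome 1. COL5A2 had a run of 2 from 189917474 on chromosome 2. An intron over 200 nt leaves an untargeted middle, which breaks such a run unless that middle itself has one of the 5 lengths. COL1A1, with a median annotated intron of 141 nt, had the lowest median of the 7 genes, and 33 of its 50 introns (66%) were up to 200 nt. The part of intron length in these runs was not tested.

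Gap lengths were then set against all internal exons of each gene's main transcript, in order and by length only, since the list and the annotation lie on different genome builds. Of 381 internal exons, 300 (78.7%) matched a gap of exon plus 1 nt in order. COL11A1 matched 61 of 65 (93.8%), COL5A2 48 of 52 (92.3%), COL5A1 54 of 64 (84.4%), COL2A1 43 of 52 (82.7%) and COL3A1 38 of 49 (77.6%). The type I genes matched least, with 30 of 50 in COL1A2 (60%) and 26 of 49 in COL1A1 (53.1%). When gaps equal to the exon itself were sought in place of exon plus 1 nt, 28 of the 381 exons matched.

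Beside narrow intervals, which alone can show it, the additional 1 nt mostly lay on the downstream side of the exon. Gaps equal to a collagen exon length itself, without the additional 1 nt, numbered 21 in the 7 genes, and in 19 of them the interval downstream of the exon, at the start of the next intron, was narrower than 100 nt. Among the 252 gaps of exon plus 1 nt, 1 had such a narrow downstream interval. On the upstream side the numbers were 2 of 21 and 23 of 252. Downstream here follows the direction of the gene, so it is the higher coordinate in COL1A2, COL3A1 and COL5A1 and the lower in COL1A1, COL2A1, COL5A2 and COL11A1.

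Rebuilt layouts were compared next. Windows of 100 nt were laid over the introns of the main transcripts in 3 ways, and the series of widths and gaps was matched in order to the listed one, leaving out widths of exactly 100 nt from the count. With the window at the 5′ splice site moved 1 nt into the intron, 652 of 750 listed lengths matched (86.9%). With the window at the 3′ splice site moved instead, 613 matched (81.7%), and with neither moved, 47 matched (6.27%). The layouts with a moved window differ only beside introns of 100 nt or less. Their comparison therefore rests on much the same narrow intervals as the counts above and is not independent of them. The 5′ splice site layout matched the most lengths in each of the 7 genes, from 73 of 92 in COL1A2 (79.3%) to 123 of 133 in COL11A1 (92.5%). In that layout the first base of each intron over 100 nt is untargeted and the last base, next to the 3′ splice site, is covered.

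Division by the triplet length gave a similar picture. Of the 439 gaps of 30 to 400 nt in the 7 genes, 276 (62.9%) were a multiple of 9 plus 1, against 13.1% in the whole list. All 5 collagen lengths have this form, so 252 of the 276 were fixed by the choice of lengths. Outside the 5 lengths it was 24 of 187 gaps (12.8%) in the 7 genes, against 10.3% in the whole list. Multiples of 9 themselves, without the additional 1 nt, made up 36 of these 187 gaps (19.3%) in the 7 genes, against 10.8% in the whole list outside the 5 lengths. Of these 36 gaps, 21 equalled one of the 5 collagen exon lengths without the additional 1 nt. They belong to the same exon classes, so the 19.3% does not show a further excess of multiples of 9. By gene the share of multiples of 9 plus 1 over all gaps of 30 to 400 nt ran between 58.8% in COL1A2 and 70.3% in COL11A1. In each gene most of these gaps had one of the 5 lengths.

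The same exon lengths were counted in the annotation for a list of collagen families. In the 7 genes 303 of 381 internal exons (79.5%) had one of the 5 lengths. Among fibrillar collagens outside the 7 genes it was 47 of 58 in COL24A1 (81%), 47 of 59 in COL27A1 (79.7%) and 46 of 64 in COL11A2 (71.9%), the last a further chain of type XI collagen. In the network-forming collagens, which build sheets such as basement membranes, it was 56 of 291 (19.2%). In the FACIT collagens, which sit on fibril surfaces and have interrupted helices, it was 104 of 324 (32.1%), with shares between 7.81% in COL12A1 and 53.3% in COL9A2 and COL9A3. In COL7A1, the collagen of anchoring fibrils, it was 19 of 116 (16.4%), in the beaded filament collagens of type VI 14.9%, and in the multiplexins COL15A1 and COL18A1 4 of 79 (5.06%). Over all genes it was 5762 of 167727 (3.44%).

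Most intervals in the 7 genes had the full width of 100 nt. They numbered 549 of 653 (84.1%), against 87.7% over the whole list. The genes differed widely among themselves. Full width was held by 118 of 125 intervals in COL5A1 (94.4%), 98 of 105 in COL5A2 (93.3%), 112 of 123 in COL11A1 (91.1%), 72 of 85 in COL3A1 (84.7%), 71 of 89 in COL2A1 (79.8%), 55 of 74 in COL1A2 (74.3%) and 23 of 52 in COL1A1 (44.2%). COL1A1 stood apart from the other 6 genes. Beside the rest of their own chromosomes the genes went both ways. COL3A1, COL5A2 and COL11A1 together had 90.1%, against 79.5% on the rest of chromosomes 1 and 2, and COL5A1 lay above the 91.1% of chromosome 9. COL1A1, COL1A2 and COL2A1 lay below the rest of chromosomes 17 (86.8%), 7 (90.3%) and 12 (88.5%).

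An interval wider than 100 nt can arise where the windows at both ends of a short intron meet, although not every such interval aligned with an annotated intron. There were 66 intervals wider than 100 nt in the 7 genes (10.1%), against 4.41% over the whole list. COL1A1 had 20 of 52 (38.5%), and the other genes had between 1.6% in COL5A1 and 15.7% in COL2A1. Introns of up to 200 nt make up 66% of the annotated introns of COL1A1, 28.3% of those of COL2A1 and 10.8% of those of COL5A1. The median annotated intron was 141 nt in COL1A1, 350 nt in COL2A1, 420 nt in COL1A2, 424 nt in COL3A1, 1001 nt in COL5A2, 1058 nt in COL5A1 and 1428 nt in COL11A1.

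The widest interval of each gene was compared. It was 197 nt in COL2A1, on chromosome 12 from 48372182 to 48372378. It was 185 nt in COL11A1 (chromosome 1, from 103491170 to 103491354) and 172 nt in COL5A1 (chromosome 9, from 137642464 to 137642635). COL3A1 reached 166 nt (chromosome 2, from 189870185), COL1A1 164 nt (chromosome 17, from 48271545), COL1A2 149 nt (chromosome 7, from 94043057) and COL5A2 111 nt (chromosome 2, from 189932840). These widest intervals all had a score of 0. The narrowest interval was 13 nt in COL1A2 (chromosome 7, from 94051353 to 94051365), 21 nt in COL1A1 (chromosome 17, from 48273957) and 24 nt in COL5A1 (chromosome 9, from 137714744). In the other 4 genes the narrowest was 60 nt in COL5A2, 62 nt in COL2A1, 64 nt in COL3A1 and 80 nt in COL11A1.

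**Figure D4:**
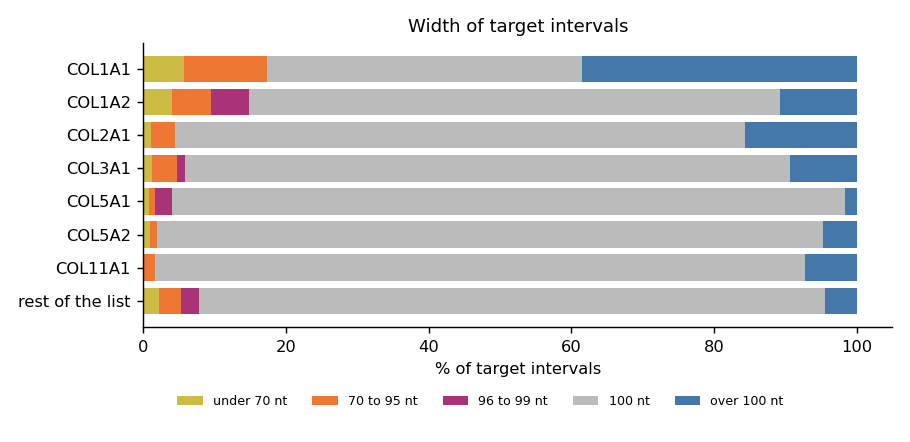
Share of intervals in each width class (horizontal axis, % of intervals) for the 7 genes and the rest of the list, each bar summing to all intervals of its row. The share of 100 nt (grey) is 44.2% in COL1A1 and 94.4% in COL5A1, and the share over 100 nt (blue) is 38.5% in COL1A1.

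Slightly narrow intervals were scarce in the 7 genes pooled, but not in each gene. Widths of 96 to 99 nt were held by 8 of the 653 (1.23%), against 2.57% over the whole list. Widths of 70 to 95 nt were held by 20 (3.06%), against 3.08%. For 96 to 99 nt, COL1A2 had 4 of 74 (5.41%), against 1.08% on the rest of chromosome 7. COL5A1 had 3 of 125 (2.4%), against 0.794% on the rest of chromosome 9. COL1A1 and COL2A1 had 0, against 0.691% on the rest of chromosome 17 and 1.23% on that of chromosome 12. On chromosomes 1 and 2, widths of 96 to 99 nt were held by 1 of the 313 intervals of COL3A1, COL5A2 and COL11A1 (0.319%), against 6819 of the other 67987 (10%). The score differed alongside: 301 of these 313 had score 0, and among other intervals of those chromosomes with score 0 the share of 96 to 99 nt was 3.08%, against 16.4% with a score above 0. The part of the score in the width difference was not tested.

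The number of listed intervals was close to that of the rebuilt layout in 5 genes and lower in both type I genes. COL1A1 had 52 listed for 67 rebuilt (77.6%) and COL1A2 had 74 for 89 (83.1%). COL2A1 had 89 for 91 (97.8%) and COL3A1 had 85 for 89 (95.5%). COL5A1, COL5A2 and COL11A1 had 1 to 3 more intervals than the layout. The rebuilt layout rests on GENCODE release 29 and the design on release 12, and the part of that difference was not tested.

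Each interval carries a whole-number score of 0 to 125 that neither the labels nor the file explains, so it is described only as the authors' value. The 7 genes had low scores. Score 0 was held by 568 of 653 intervals (87%), against 47.2% over the whole list, and the mean was 0.478 in the 7 genes, against 6.81 in the rest of the list. Without COL5A1 the mean was 0.229, and without 12 COL5A1 intervals described below it was 0.204. On the 6 chromosomes that hold the genes, the other intervals had a mean of 6.44, with 46.3% at score 0.

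The median score was 0 in every one of the 7 genes, and the highest differed. COL2A1 had 1 interval of 89 above 0 (1.12%), with a score of 2, on chromosome 12 from 48368646. COL11A1 had 3 of 123 above 0 (2.44%), COL3A1 had 3 of 85 (3.53%) and COL5A2 had 6 of 105 (5.71%), all with a score of 1. COL1A1 had 16 of 52 above 0 (30.8%) with a highest score of 2, and COL1A2 had 36 of 74 (48.6%) with a highest score of 9. COL5A1 had 20 of 125 above 0 (16%) with a highest score of 40. Each gene's mean was under that of the rest of its own chromosome: 0.327 against 10 for COL1A1 on chromosome 17, 1.22 against 7.54 for COL1A2 on chromosome 7, and 1.53 against 7.21 for COL5A1 on chromosome 9.

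The higher scores of COL5A1 lay together near its 3′ end. A stretch of 12 intervals in a row, on chromosome 9 from 137711862 to 137717851, had scores of 13, 12, 7, 6, 8, 40, 13, 8, 21, 6, 8 and 39, and held 94.8% of the summed score of the gene. By order it aligned with introns 57 to 63 of the 65 in the main transcript. In the other 113 intervals of COL5A1, 8 were above 0 (7.08%) and the mean was 0.0885. The interval with score 40 ran from 137714881 to 137714980, beside the 24 nt interval named above. In the annotation used here, the only other gene within COL5A1 was the antisense COL5A1-AS1, in intron 1. That annotation is a later release than the one behind the design. Whether an overlapping gene has a part in the scores of the stretch was not tested. The stretch was picked out after its values were seen. COL1A2 had a run of 5 intervals above 0 at its 3′ end, on chromosome 7 from 94056375 to 94058499, with scores of 1 to 9.

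**Figure D5:**
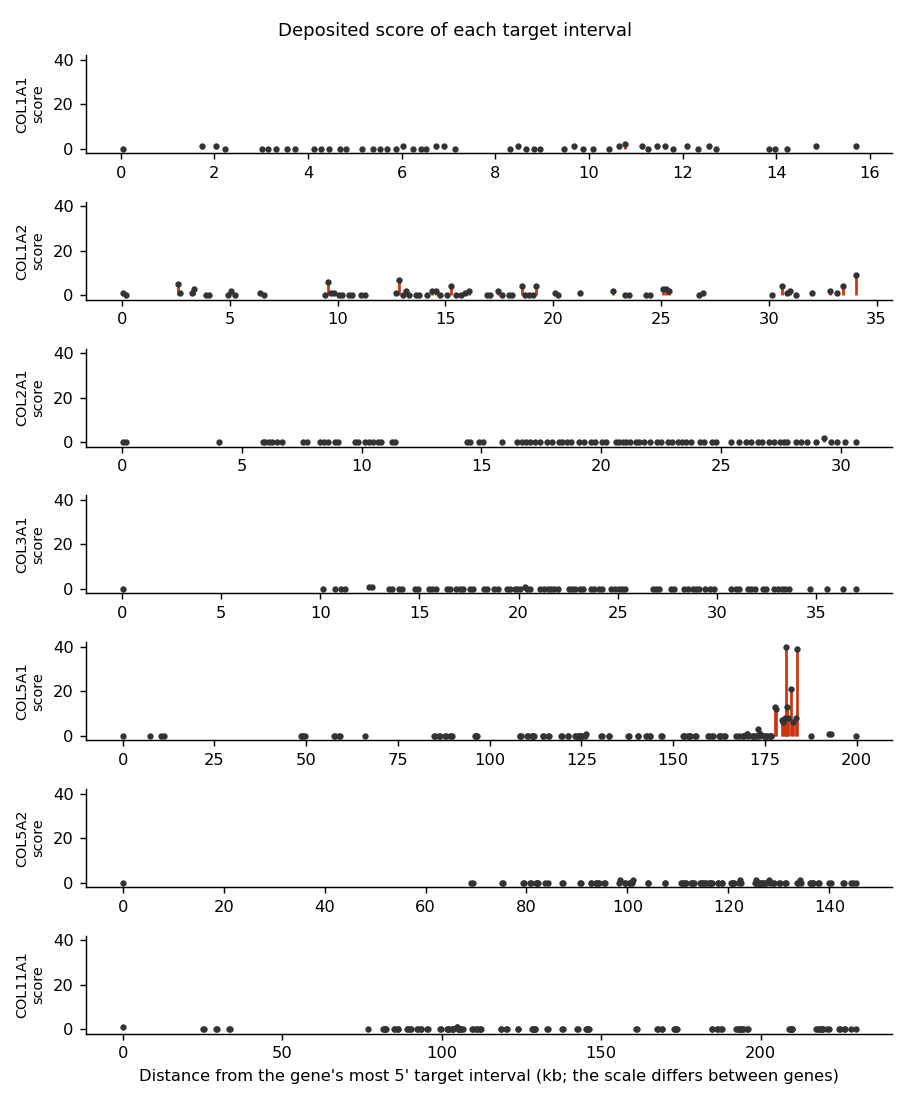
Score of each interval (vertical axis, the authors' value with no stated unit) against its distance in kb from the most 5′ interval of the gene (horizontal axes, which differ in scale), 1 panel per gene. Most intervals sit at 0, COL5A1 rises to 40 in 12 intervals in a row near its 3′ end, and COL1A2 reaches 9.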

How the data were processed

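One interval list was used, common to the 3 K562 libraries, on hg19 per the submitters' processing notes, which also name Bowtie2, TopHat2 and bedtools. Per the labels' protocols, targets were the terminal 100 nt of introns of GENCODE release 12, less exons, repeats and highly transcribed regions. The deposited score is a whole number for each interval, and neither labels nor file say how the authors made it. No column per sample was left out (0). The 7 genes and the gap lengths (46, 55, 100, 109 and 163 nt, each an exon of 45, 54, 99, 108 or 162 nt plus 1) were chosen with earlier results of these data known.

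A gap is the distance between neighbouring intervals, and shares are over gaps of 30 to 400 nt. Gaps and widths were matched to the main transcripts of GENCODE release 29 (GRCh38) by length and order, as the longest common series. No coordinates were moved between builds. Sequences came from the GENCODE transcripts. Intervals were named as the longest run, widest, narrowest and highest score of each gene. The layout and matching code was tested on simulated data. Python 3.11.15, numpy 2.4.6, pandas 2.3.3, scipy 1.17.1 and matplotlib 3.10.9 were used. No statistical test was made, because there is 1 list and no value per library. Alternatives changed the match tolerance, gap range, windows, transcripts and genes included.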

Additional observations from a re-analysis of the deposited data

How the results depend on the processing

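The share of gaps with the 5 collagen lengths in the 7 genes was 57.4%. It was 63.1% when lengths within 1 nt were counted, 46.7% over all gaps up to 1000 nt, 52.6% where both neighbouring intervals were exactly 100 nt wide, and 4.78% for the exon length itself. Leaving out each gene in turn gave 56.5% to 59%. The share of gaps that were a multiple of 9 plus 1 was 62.9%, and 71.4% for gaps of 30 to 200 nt. The share of intervals of full width was 84.1%, against 89.1% for widths of 90 to 110 nt and 78.5% without the genes on chromosomes 1 and 2. With each gene left out in turn, the mean score of 0.478 ran between 0.229 (without COL5A1) and 0.583 (without COL11A1). With windows widened by 10 kb it was 0.605, and as a share above 0 the score was 13%. The match of 300 exons in order was 28 with the exon length itself and 327 within 1 nt. Leaving out the COL5A1 stretch, widening the windows for the interval number and using all internal exons were chosen after seeing the data, with values of 0.204, 681 intervals and 77.9%. The cause of these differences was not tested, apart from the wider counting that some settings make by construction. No paired analysis was possible because the list has no value per library, and for the same reason no replicate could be left out. Depth was not analysed here.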

Other observations

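Of the gaps of 30 to 400 nt outside the 5 collagen lengths, the commonest in the 7 genes was 54 nt, the 6-triplet exon length itself, with 12 gaps. COL1A2 and COL3A1 had 3 each, COL5A1 had 2, and COL1A1, COL2A1, COL5A2 and COL11A1 had 1 each. The whole list held 514 gaps of 54 nt and 1089 of 55 nt. No other length outside the 5 occurred more than 4 times in the 7 genes.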
